A study of Danio rerio with 4 samples.

Results

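The 60 genes described here were those whose expression was most restricted to the cluster annotated as Bulbus arteriosus in the embryonic zebrafish heart. They were chosen from 25434 measured genes by their pooled level: the unique molecular identifiers (UMIs, 1 per captured mRNA molecule) of all annotated cells were summed for each of the 18 annotated clusters and scaled to a common total (counts per 1e6 UMIs, CPM). Genes with at least 50 CPM in Bulbus arteriosus and a lower level in every other cluster numbered 217, and the 60 with the highest ratio of Bulbus arteriosus to the second cluster (5 CPM added to both) were taken. Because the levels chose the genes, the ratios to other clusters are a description and were not tested.

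Whole hearts were pooled from double transgenic embryos at 48 and 72 hours post fertilization (hpf), and 1 droplet library was made for each of the enhancer-trap lines sqet31Et and sqet33mi59BEt at each stage. Each line was crossed with Tg(myl7:mRFP), so that all 4 groups carried mRFP driven by the cardiomyocyte promoter of myl7, and EGFP in the atrioventricular or sinoatrial region from the trap. The 2 libraries of a stage therefore differ in genotype, which the authors called pseudo-replicates. The p-values for the stage rest on the spread between these libraries, which the fits estimate in part from the other genes. Sex was not determined.

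The bulbus arteriosus is the elastic outflow chamber of the teleost heart, which takes up the ejected volume of the ventricle and smooths the pressure that reaches the gills. Its wall is built from smooth muscle and an elastic matrix in which elastin is laid on a microfibril scaffold, guided by fibulins and crosslinked by lysyl oxidases. In zebrafish, elnb is the elastin copy known for its part in this chamber.

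Bulbus arteriosus held 1547 of 34676 annotated cells, namely 253 and 119 cells at 48 hpf and 663 and 512 cells at 72 hpf (sqet31Et first and sqet33mi59BEt second, the order kept throughout). No barcode of these cells occurred in more than 1 library. The median UMIs per cell were 1413 and 2468 at 48 hpf and 1944 and 914 at 72 hpf. The 72 hpf libraries supplied 76.0% of the cells and 66.9% of the UMIs of the cluster, so the choice of genes weighted 72 hpf more. Of the 60 genes, 57 had a symbol, 36 of them the symbol of a human gene, printed here in capitals. The zebrafish copy behind such a symbol was not resolved, and the gene identifier is given where 2 genes share it, as for 16 members.

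The authors distinguished this cluster by elnb, postnb and fbln5, and the rule chose the members for a high level in it. Levels of 13 identifiers of known bulbus genes, 6 of which are members, therefore describe the label and do not test it. The summed level of these 13 identifiers in Bulbus arteriosus was 1353 and 1144 CPM at 48 hpf and 7600 and 7132 CPM at 72 hpf. At 48 hpf elnb was at 0 UMIs in both libraries, and fbln5, LOX and acta2 were each under 50 CPM. Of the identifiers named POSTN only ENSDARG00000104267 was high there, and it and mfap2 were at 400.4 CPM or more. The markers elnb, fbln5, LOX and acta2 were thus present in cells labelled Bulbus arteriosus at 72 hpf and absent or low at 48 hpf. POSTN (ENSDARG00000104267) and mfap2 stayed at 400.4 CPM or more at both stages, so the markers were mixed at 48 hpf. Whether both stages hold the same cell population under this label was not tested, and every stage difference in the cluster compares cells as they were labelled.

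Ratios to the second cluster ran from 1.59 to 14.9 with a median of 2.44, and 40 members reached a ratio of 2. Only 6 exceeded a ratio of 5: fbln5, HTRA1 (ENSDARG00000032831), si:cabz01070274.1, LOX, elnb and angptl2a. The pooled level in Bulbus arteriosus spanned 51.6 to 1657 CPM. Just inside the limit stood ENSDARG00000035682, nav2b and LMAN1 at ratios of 1.60, 1.60 and 1.59. Just outside it were tlx2, phldb1b and rcn3 at 1.58, 1.57 and 1.56, so the list ends within a gradual decline.

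**Figure D1:**
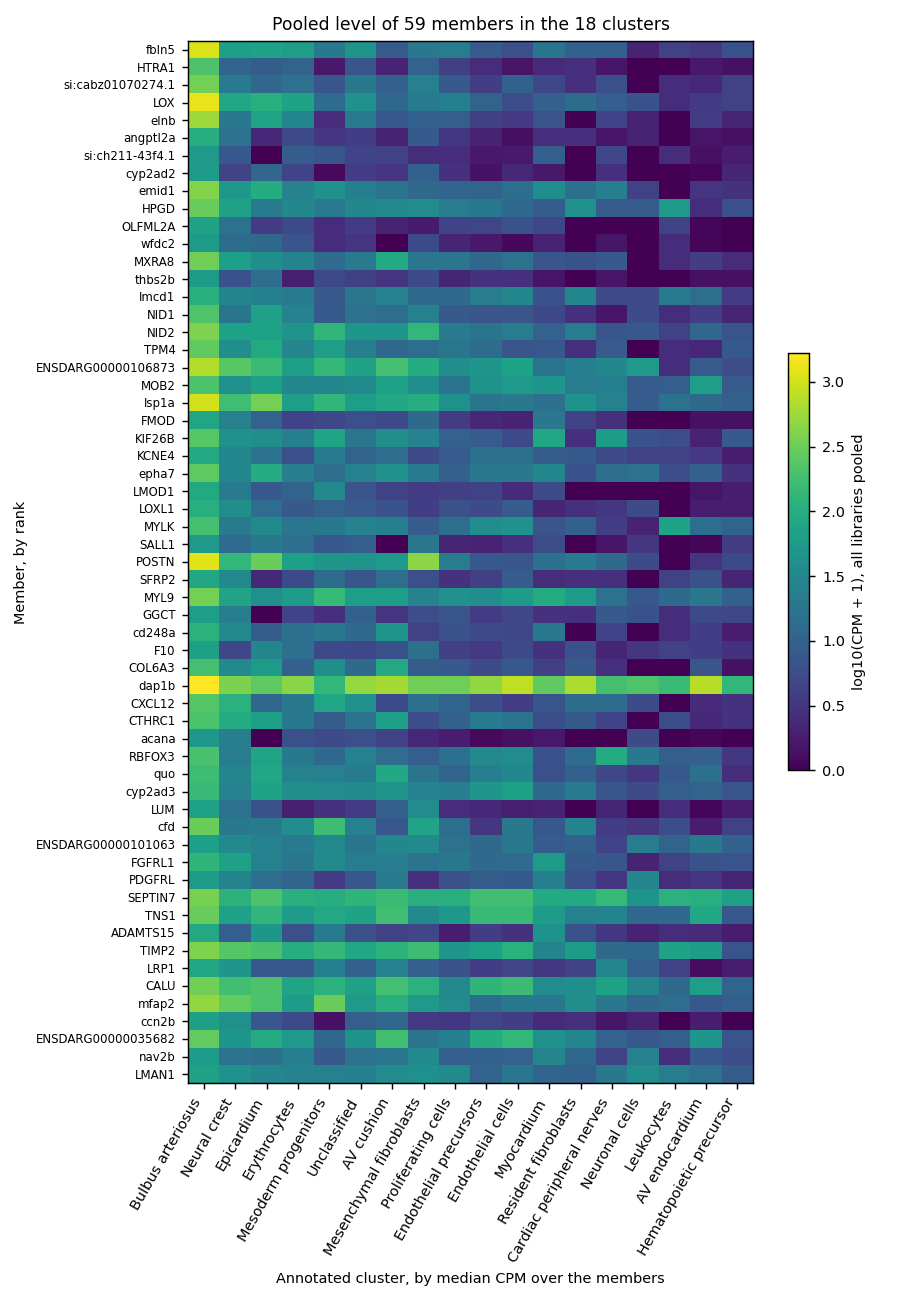
Pooled level of 59 members (rows, by rank) in the 18 annotated clusters (columns), as log10(CPM + 1) over all 4 libraries. Bulbus arteriosus is the first column and is the highest in every row by the choice of the genes, and dap1b and SEPTIN7 are visible in most other columns.

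Neural crest was the second cluster for 21 members and Epicardium for 17. AV cushion followed with 6, Mesenchymal fibroblasts with 5 and Mesoderm progenitors with 4, and 5 further clusters shared the rest. The median ratio was 2.36 where Neural crest came second and 2.83 where Epicardium did. Erythrocytes, which should lack these matrix and muscle genes, gave a median of 20.3 CPM over the members, and none was at 0 there. For 13 members the level in the second cluster was less than 2 times that in Erythrocytes. fbln5 was one of them, with 70.8 CPM in Epicardium and 61.5 CPM in Erythrocytes against 1127 CPM in Bulbus arteriosus, and LOX had 102 and 70.1 CPM against 1267 CPM. UMIs of fbln5 and LOX were thus counted in Erythrocytes. Both levels there exceeded those in every cluster but Bulbus arteriosus, Epicardium and Neural crest, with 3.33 and 1.67 CPM in Leukocytes. The authors had removed cells with a high share of hemoglobin reads. The Erythrocytes kept are therefore a selected set and no plain measure of background.

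The order of clusters was not the same in every library. Bulbus arteriosus was the highest cluster for 54 and 49 members in the 72 hpf libraries and for 25 and 27 members at 48 hpf. It led in all 4 libraries for 9 members, among them HTRA1, LOX, si:ch211-43f4.1, NID1 (ENSDARG00000068710), TPM4, SALL1 (ENSDARG00000075891), F10 and cyp2ad3. LMOD1 (ENSDARG00000077261) led in none of them, although its pooled level did. With clusters under 20 cells in a library left aside, 16 members led in all 4.

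The same rule run on 1 stage at a time gave largely separate lists. From the 72 hpf libraries alone it returned 40 of the 60 members and from the 48 hpf libraries alone 13. The 2 stage lists had 7 genes in common. Weighting the 4 libraries equally kept 42 members. Without the 72 hpf sqet31Et library, which holds 663 of the cells, 39 members stayed on the list.

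Between stages, the members as a group were mostly higher in Bulbus arteriosus at 72 hpf. Together they made up 0.710% and 0.718% of the UMIs of the cluster at 48 hpf and 2.27% and 2.42% at 72 hpf. In Erythrocytes the share was 0.135% and 0.146%, then 0.179% and 0.281%. The first 5 members alone went from 0.00801% and 0.00575% to 0.527% and 0.514%. In CPM, both 72 hpf libraries lay above both 48 hpf libraries for 49 members, against 28.2% of the 5430 genes tested, and both lay below for 3, against 19.6%. The pool that chose the members drew 66.9% of its UMIs from 72 hpf, which favours this order. The counts are therefore not independent of the choice. Members under 50 CPM in both 48 hpf libraries met the floor of the rule only through 72 hpf. Among them were fbln5, HTRA1, si:cabz01070274.1, LOX, elnb, angptl2a, LOXL1, MYLK, NID1, KCNE4, cfd, RBFOX3, wfdc2, OLFML2A, lmcd1, ccn2b, GGCT, LMOD1 and acana. Their stage folds and p-values, wherever given below, are therefore not independent of the choice either.

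**Figure D2:**
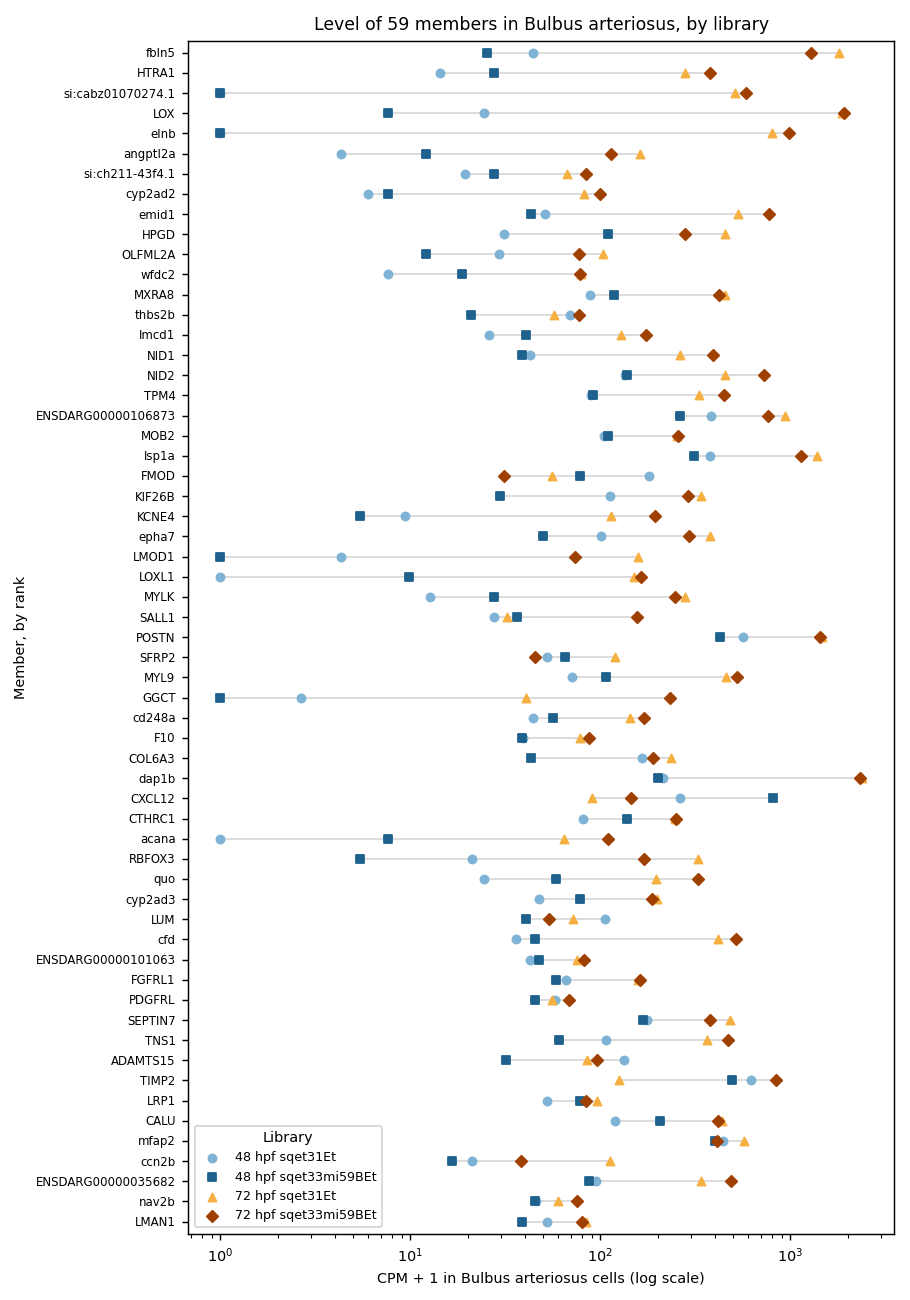
CPM + 1 of 59 members (rows, by rank) in the Bulbus arteriosus cells of each library, on a log axis. Circles and squares are the 48 hpf libraries, triangles and diamonds the 72 hpf libraries, and the grey line spans the 4 values. Both 72 hpf symbols lie to the right for 49 of these members, and CXCL12 and FMOD show the opposite order.

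The stage was tested with edgeR on the summed UMIs of Bulbus arteriosus, over all 5430 genes that passed its filter on low counts. All 60 members passed that filter. At an adjusted p under 0.05, 42 members rose from 48 to 72 hpf and 2 fell, while 4.68% of all tested genes rose and 3.98% fell. At an unadjusted p under 0.05, 46 members were higher and 2 lower, against 10.9% and 9.48% of all tested genes. With DESeq2 36 members rose and 1 fell, against 3.04% and 2.65%, and the calls of CALU, FGFRL1, SEPTIN7, MOB2, ccn2b, si:ch211-43f4.1 and FMOD were lost. The median log2 fold change was 2.00 over the members and 0.014 over all tested genes. This count depends on how the genes were chosen: 35 of the 60 genes taken with equal library weights rose and 3 fell, and of the 60 genes taken from 48 hpf alone 6 rose and 16 fell. The median log2 fold change of that last list was -0.64. Without the 48 hpf sqet31Et library 25 members rose and 1 fell, and 25 of the original 44 calls remained.

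Other properties of the cells moved with the stage. The median share of mitochondrial UMIs in Bulbus arteriosus was 6.48% and 5.10% at 48 hpf and 15.4% and 8.18% at 72 hpf. Cells called as G1 made up 41.5% and 57.1% and then 76.9% and 67.6%. Among cells under 10% mitochondrial UMIs 38 members rose and 2 fell, against 3.23% and 2.92% of all genes tested there. Among G1 cells 34 rose and 1 fell, against 3.77% and 2.99%, both alternatives being chosen after seeing the data. Over 5 myocardial markers the summed level was 1022 to 1513 CPM at 48 hpf and 993 CPM in both 72 hpf libraries, with 1 copy of TNNT2 at 0, and myh6 was called lower at 72 hpf (log2 fold change -1.77, adjusted p = 0.038). Over 4 cell cycle genes it was 223 to 522 and 158 to 243 CPM, with none at 0, and mki67 was called lower (log2 fold change -1.68, adjusted p = 0.022). With DESeq2 the calls of myh6 and mki67 were lost (adjusted p = 0.10 and 0.053). Without the 48 hpf sqet31Et library their log2 fold changes were -0.71 and -1.18. The 3 epicardial markers summed to 61.7 and 234 CPM and to 206 and 143 CPM, and TBX18 was called higher (log2 fold change 2.14, adjusted p = 0.012). The TBX18 call held with DESeq2 (adjusted p = 0.019). In edgeR it was lost at 1000 UMIs (0.056), under 10% mitochondrial UMIs (0.14) and in G1 cells (0.11). The 4 endothelial markers summed to 107 and 111 CPM and then to 171 and 272 CPM, with none at 0, and the 2 leukocyte markers to at most 5.29 CPM. The 8 cartilage markers reached 967 CPM in the 48 hpf sqet33mi59BEt library against 240 to 272 CPM in the others. Of the 5 tested, 1 rose, the member acana, and 2 fell. The 5 neural crest markers summed to 345 and 675 CPM and then to 287 and 374 CPM, and neither of the 2 tested was called. The 6 epidermal markers ranged from 55.3 to 173 CPM in sum and the 2 erythrocyte markers from 8.97 to 116 CPM. The part of these cells in the stage result was not tested.

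Of the 5 elastic fibre genes among the members, fbln5, LOX, elnb and LOXL1 were higher at 72 hpf and mfap2 did not pass the test. All but mfap2 met the floor of the rule only through 72 hpf, so their folds and p-values are not independent of the choice. elnb, elastin itself, was at 0 UMIs in both 48 hpf libraries and at 800 and 977 CPM at 72 hpf. Against a floor of 3 UMIs over the 48 hpf cells it was at least 297-fold higher at 72 hpf. fbln5, which encodes fibulin-5 and helps to place elastin on the fibre, stood at 43.4 and 24.3 CPM and then at 1804 and 1290 CPM. It rose by 5.44 on the log2 scale (SE 0.49, adjusted p = 3.5e-06). LOX, a lysyl oxidase that crosslinks elastin and collagen, had 23.4 and 6.64 CPM at 48 hpf. It reached 1874 and 1914 CPM at 72 hpf (log2 fold change 6.84, SE 0.54, adjusted p = 7.0e-07). LOXL1, a related oxidase, was at 0 and 8.85 CPM and then at 150 and 162 CPM (log2 fold change 5.18, SE 0.68, adjusted p = 0.00013).

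mfap2, a microfibril protein, behaved differently from these. Its level was 444 and 400 CPM at 48 hpf and 570 and 411 CPM at 72 hpf, and the values overlapped (log2 fold change 0.16, SE 0.37, adjusted p = 0.87). Over the elastic fibre list, 13 identifiers were tested, of which 5 rose and 1 fell. Among the 8 that are not members, mfap5 rose (log2 fold change 1.51, SE 0.44, adjusted p = 0.042) and loxl2a fell (log2 fold change -2.71, SE 0.47, adjusted p = 0.0011). With DESeq2 the call of mfap5 was lost (adjusted p = 0.13). loxl2a was at 385 and 392 CPM at 48 hpf and at 26.9 and 115 CPM at 72 hpf. Genes of the lysyl oxidase family thus moved in both directions: LOX and LOXL1 on the list rose, and loxl2a outside it fell.

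Contractile genes of smooth muscle were the next group. MYLK (ENSDARG00000034801), the kinase that phosphorylates myosin light chain, was at 11.7 and 26.5 CPM and then at 277 and 247 CPM (log2 fold change 3.73, SE 0.48, adjusted p = 9.9e-05). MYL9 (ENSDARG00000038123), a regulatory light chain of smooth muscle myosin, had 70.1 and 106 CPM at 48 hpf and 460 and 520 CPM at 72 hpf (log2 fold change 2.37, SE 0.39, adjusted p = 0.00068). LMOD1, which nucleates actin filaments in smooth muscle, had 2 UMIs in all at 48 hpf and 157 and 72.3 CPM at 72 hpf. Its ratio between the stages was 70.7, with an exact counting interval from 19.4 to 587. All 3 were higher in both 72 hpf libraries.

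TPM4, a tropomyosin, went from 88.4 and 90.7 CPM to 328 and 446 CPM (log2 fold change 2.00, SE 0.36, adjusted p = 0.0015). The actin-binding protein lsp1a had 379 and 312 CPM and then 1385 and 1134 CPM (log2 fold change 1.80, SE 0.38, adjusted p = 0.0049). Of the 15 tested identifiers of the contractile list, 10 rose and 1 fell, against 4.68% and 3.98% of all tested genes. Among the 10 of them that are no members, 5 rose and 1 fell. Outside the members, acta2, the smooth muscle actin, rose from 15.0 and 8.85 to 243 and 185 CPM (log2 fold change 4.07, SE 0.49, adjusted p = 4.5e-05). A smooth muscle myosin heavy chain, MYH11 (ENSDARG00000009782), had 3 UMIs at 48 hpf and 376 at 72 hpf, a ratio of 62.0 with a counting interval from 21.04 to 302. lsp1b fell (log2 fold change -1.90, SE 0.42, adjusted p = 0.0075), in the opposite direction to lsp1a.

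Among basement membrane and matricellular members some rose and others did not pass the test. NID1, a nidogen that links laminin to collagen IV, was at 41.7 and 37.6 CPM and then at 262 and 390 CPM (log2 fold change 2.91, SE 0.39, adjusted p = 0.00013). NID2, the second nidogen, had 133 and 137 CPM at 48 hpf and 451 and 722 CPM at 72 hpf (log2 fold change 1.98, SE 0.36, adjusted p = 0.0017). POSTN (ENSDARG00000104267), or periostin, went from 560 and 427 CPM to 1472 and 1424 CPM (log2 fold change 1.48, SE 0.37, adjusted p = 0.017). NID2 and POSTN were already above 100 CPM in both 48 hpf libraries. The growth factor-binding matrix protein ccn2b had 20.02 and 15.5 CPM and then 111 and 37.1 CPM (log2 fold change 2.09, SE 0.58, adjusted p = 0.031), with the 2 lines far apart at 72 hpf.

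HTRA1, a secreted serine protease of the matrix, was among the most restricted genes of all. It had 13.3 and 26.5 CPM at 48 hpf and 279 and 378 CPM at 72 hpf (log2 fold change 3.95, SE 0.45, adjusted p = 3.4e-05). CTHRC1 (ENSDARG00000087198), a secreted collagen triple helix repeat protein, was at 80.1 and 137 CPM and at 245 and 251 CPM without passing the threshold (log2 fold change 1.09, SE 0.39, adjusted p = 0.096). LUM, the collagen-binding proteoglycan lumican, overlapped between stages at 105 and 39.8 CPM and 70.5 and 52.9 CPM (adjusted p = 0.82). thbs2b, a thrombospondin, did so at 68.4 and 19.9 CPM and 55.7 and 75.9 CPM (adjusted p = 0.67). Of the 24 tested identifiers of the matricellular and basement membrane list 6 rose and 5 fell, and the 5 that fell were no members. Among the 17 tested identifiers of the list that are no members only 1 rose, with a median log2 fold change of -0.58. Over all tested genes 4.68% rose and 3.98% fell. Of the 5 that fell, TNC, or tenascin C (ENSDARG00000021948), went from 83.4 and 146 CPM to 12.2 and 8.82 CPM (log2 fold change -3.42, SE 0.50, adjusted p = 0.00027).

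Other matrix members followed the same direction for the most part. COL6A3, a chain of collagen VI, had 165 and 42.0 CPM and then 235 and 189 CPM, and did not pass (adjusted p = 0.24). MXRA8 (ENSDARG00000062129), a membrane protein of matrix-producing cells, rose from 86.7 and 117 to 450 and 422 CPM (log2 fold change 2.01, SE 0.38, adjusted p = 0.0021). emid1, which carries an EMI domain, rose from 50.04 and 42.0 to 530 and 767 CPM (log2 fold change 3.69, SE 0.39, adjusted p = 1.9e-05). OLFML2A (ENSDARG00000005648), an olfactomedin-domain matrix protein, rose from 28.4 and 11.1 to 103 and 75.9 CPM (log2 fold change 2.10, SE 0.49, adjusted p = 0.011). acana, the large proteoglycan aggrecan, had 3 UMIs at 48 hpf, and its level at 72 hpf was 26.5-fold higher with a counting interval from 8.92 to 130. TIMP2 (ENSDARG00000075261), an inhibitor of matrix metalloproteinases, was at 622 and 491 CPM and at 124 and 835 CPM, so that the 2 lines at 72 hpf enclosed both 48 hpf values (adjusted p = 0.72). ADAMTS15 (ENSDARG00000029124), a secreted metalloproteinase, overlapped as well at 132 and 31.0 CPM and 83.9 and 95.3 CPM (adjusted p = 0.97).

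Only 2 members fell from 48 to 72 hpf. CXCL12, a chemokine that guides cells bearing CXCR4, was at 262 and 810 CPM and then at 89.1 and 145 CPM (log2 fold change -2.37, SE 0.48, adjusted p = 0.0037). Without the 48 hpf sqet33mi59BEt library the value for CXCL12 was -1.21 and the call was lost (adjusted p = 0.15). FMOD (ENSDARG00000044895), the proteoglycan fibromodulin, was at 178 and 77.4 CPM and then at 54.5 and 29.99 CPM (log2 fold change -1.57, SE 0.46, adjusted p = 0.040). The FMOD call was lost with DESeq2 (adjusted p = 0.079), without TMM (0.063), at 1000 UMIs (0.10), in G1 cells (0.11), and without the 48 hpf sqet31Et (-0.98, adjusted p = 0.46) or the 72 hpf sqet33mi59BEt library (-1.12, adjusted p = 0.13). Both genes were on the list taken from 48 hpf alone.

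Secreted and signalling members made up a further group. angptl2a, an angiopoietin-like glycoprotein, was at 3.34 and 11.1 CPM and then at 161 and 113 CPM (log2 fold change 4.26, SE 0.59, adjusted p = 0.00017). cfd, complement factor D, was at 35.0 and 44.2 CPM and then at 415 and 517 CPM (log2 fold change 3.45, SE 0.40, adjusted p = 3.4e-05). wfdc2, a small secreted protein with a protease inhibitor fold, had 6.67 and 17.7 CPM and then 78.2 and 77.6 CPM (log2 fold change 2.64, SE 0.54, adjusted p = 0.0038). These 3 rose in both lines. SFRP2, a secreted modulator of Wnt signals, overlapped at 51.7 and 64.1 CPM and 118 and 44.1 CPM (adjusted p = 0.64). F10, which carries the name of a coagulation factor, had 38.4 and 37.6 CPM and 76.9 and 86.5 CPM (adjusted p = 0.16).

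Among channel and receptor genes, KCNE4, a regulatory subunit of potassium channels, rose from 8.34 and 4.42 CPM to 113 and 194 CPM (log2 fold change 4.39, SE 0.52, adjusted p = 4.4e-05). epha7, an ephrin receptor, rose from 100 and 48.7 to 378 and 291 CPM (log2 fold change 2.11, SE 0.41, adjusted p = 0.0025). cd248a, or endosialin, a surface protein of stromal cells, rose from 43.4 and 55.3 to 142 and 169 CPM (log2 fold change 1.56, SE 0.39, adjusted p = 0.018). FGFRL1, a receptor of fibroblast growth factors without a kinase domain, rose from 65.1 and 57.5 to 156 and 161 CPM (log2 fold change 1.28, SE 0.38, adjusted p = 0.043). PDGFRL and LRP1 (ENSDARG00000097827), a receptor-like protein and a large endocytic receptor, ranged from 44.2 to 67.0 CPM and from 51.7 to 94.8 CPM over the 4 libraries and did not pass (adjusted p = 0.88 and 0.67).

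Of 8 members with cytoskeletal, signalling or nuclear roles, SALL1 and nav2b did not pass and the other 6 rose. KIF26B, a kinesin-family protein, had 112 and 28.8 CPM and then 336 and 288 CPM (log2 fold change 2.09, SE 0.46, adjusted p = 0.0075). TNS1, a tensin at focal adhesions, had 107 and 59.7 CPM and then 365 and 471 CPM (log2 fold change 2.22, SE 0.38, adjusted p = 0.00092). SEPTIN7, a septin filament subunit, and MOB2 (ENSDARG00000023214), a regulator of NDR kinases, rose with log2 fold changes of 1.27 (adjusted p = 0.038) and 1.17 (adjusted p = 0.049). MOB2 lay close to the threshold, and DESeq2 called neither SEPTIN7 nor MOB2. lmcd1, a LIM-domain regulator of transcription, rose from 25.0 and 39.8 to 127 and 173 CPM (log2 fold change 2.10, SE 0.42, adjusted p = 0.0036). RBFOX3 (ENSDARG00000010083), a splicing factor best known from neurons, rose from 20.02 and 4.42 to 326 and 169 CPM (log2 fold change 4.25, SE 0.57, adjusted p = 0.00015), and Cardiac peripheral nerves were its second cluster. SALL1, a zinc-finger transcription factor, was at 155 CPM in the 72 hpf sqet33mi59BEt library and between 26.7 and 35.4 CPM in the other 3, and did not pass (adjusted p = 0.18). nav2b, a navigator protein of the cytoskeleton, had 45.0 and 44.2 CPM and then 59.0 and 74.1 CPM (adjusted p = 0.60).

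Among enzymes, HPGD, which inactivates prostaglandins, was at 30.02 and 108 CPM and then at 454 and 279 CPM (log2 fold change 2.35, SE 0.52, adjusted p = 0.0075). The cytochrome P450 genes cyp2ad2 and cyp2ad3 rose with log2 fold changes of 3.85 (SE 0.55, adjusted p = 0.00024) and 1.55 (SE 0.41, adjusted p = 0.022). Their levels at 72 hpf were 81.4 and 98.8 CPM for cyp2ad2 and 197 and 187 CPM for cyp2ad3. GGCT, a gamma-glutamyl cyclotransferase, had 1 UMI at 48 hpf and 39.7 and 231 CPM at 72 hpf, a ratio of 95.4 with a counting interval from 16.9 to 3788. One line supplied most of the GGCT signal at 72 hpf, and the interval leaves out this spread between libraries. GGCT met the floor of the rule only through 72 hpf, so its ratio follows from the choice. CALU, a calcium-binding protein of the secretory pathway, rose from 118 and 206 to 436 and 416 CPM (log2 fold change 1.30, SE 0.39, adjusted p = 0.046). LMAN1, a cargo receptor of the same pathway, ranged from 37.6 to 82.7 CPM and did not pass (adjusted p = 0.30).

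The remaining members are less well characterised. si:cabz01070274.1 was at 0 UMIs in both 48 hpf libraries and at 509 and 582 CPM at 72 hpf, at least 185-fold above the floor of 3 UMIs. dap1b, which is named after a death-associated protein, rose from 212 and 199 to 2391 and 2331 CPM (log2 fold change 3.44, SE 0.41, adjusted p = 4.4e-05). quo rose from 23.4 and 57.5 to 195 and 325 CPM (log2 fold change 2.56, SE 0.46, adjusted p = 0.0014). si:ch211-43f4.1 rose as well (log2 fold change 1.64, SE 0.46, adjusted p = 0.032). Of the 3 members without a symbol, ENSDARG00000035682 (log2 fold change 2.07, adjusted p = 0.0011) and ENSDARG00000106873 (log2 fold change 1.35, adjusted p = 0.030) rose, and ENSDARG00000101063 did not pass (adjusted p = 0.34).

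Rank and second cluster were set against the stage calls as counts only. Of the 20 highest-ranked members 19 rose, thbs2b being the exception, and of the 40 others 23 rose. Among the 21 members with Neural crest second 12 rose, among the 17 with Epicardium 13, and among the other 22 there were 17. Of the 9 members that led in all 4 libraries 6 rose. These counts rest on ratios in which 72 hpf has the larger weight.

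The same stage comparison in all other annotated cells, summed per library, called 15 members as higher at 72 hpf and none as lower, while 4.65% of 16968 tested genes were higher and 1.53% lower. At an unadjusted p under 0.05, 27 members were higher and 4 lower, against 13.9% and 8.67% of all tested genes. In Bulbus arteriosus 13 of the 15 were called as well, the other 2 being F10 and COL6A3. LOX was at 0.511 and 0.269 CPM in the other cells at 48 hpf and at 30.9 and 46.2 CPM at 72 hpf (log2 fold change 6.38, adjusted p = 0.0032). fbln5 went from 2.83 and 1.85 to 32.4 and 37.6 CPM there (log2 fold change 3.69, adjusted p = 0.0035). elnb had no UMI outside Bulbus arteriosus at 48 hpf and 13.6 and 20.1 CPM at 72 hpf, at least 267-fold above its floor. At 72 hpf the top members were thus counted at a low level in other cells too. The mix of clusters in these cells moved with the stage. Epicardium held 33 and 15 cells at 48 hpf and 245 and 300 at 72 hpf, and AV cushion 54 and 34 and then 223 and 206. Mesoderm progenitors held 294 and 183 and then 122 and 108. The part of this shift in the changes of the summed cells was not tested. Without the 72 hpf sqet31Et library 8 members were called, and without the 72 hpf sqet33mi59BEt library 6.

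Whether the stage change differed between Bulbus arteriosus and the other cells was tested as an interaction, with each library as a term of the model. The mix of clusters in the other cells differs between the stages, and its part in the differences was not tested. In this fit the spread was in effect pooled over genes, so its p-values do not measure the spread of each gene between libraries. The log2 fold change in Bulbus arteriosus minus that in the other cells was called above 0 for 27 members and below 0 for 5, against 2.38% and 1.92% of 14833 tested genes. The contrast of Bulbus arteriosus with other cells also chose the members, so this count is not independent of the choice. Among the 27, GGCT, RBFOX3, MYLK, emid1, dap1b and KCNE4 had differences of 6.21, 3.71, 3.32, 3.13, 2.97 and 3.06 on the log2 scale. The value of GGCT rests on 1 UMI in Bulbus arteriosus at 48 hpf, and DESeq2 did not call it (adjusted p = 0.11). fbln5 was called too, at 1.71 (SE 0.34, adjusted p = 7.2e-05). LOX (0.53, SE 0.53, adjusted p = 0.78) and HTRA1 (0.98, SE 0.51, adjusted p = 0.39) were not. For elnb no difference could be estimated, because it had no UMI in either set of cells at 48 hpf.

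The difference was below 0 for LUM (-1.63, adjusted p = 0.0070), FMOD (-1.45, adjusted p = 0.011), CXCL12 (-1.09, adjusted p = 0.0072), COL6A3 (-1.06, adjusted p = 0.036) and MXRA8 (-0.96, adjusted p = 0.042). MXRA8 rose in both sets of cells, COL6A3 was called only outside the cluster, and FMOD and CXCL12 fell within it, by 1.57 and 2.37 on the log2 scale, against values of -0.12 and -1.12 in the other cells. The interaction calls depend on the library term: without it 2 members were called. With DESeq2 21 differences were above 0 and none below, and without the 72 hpf sqet31Et library 16 were above and 1 below.

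**Figure D3:**
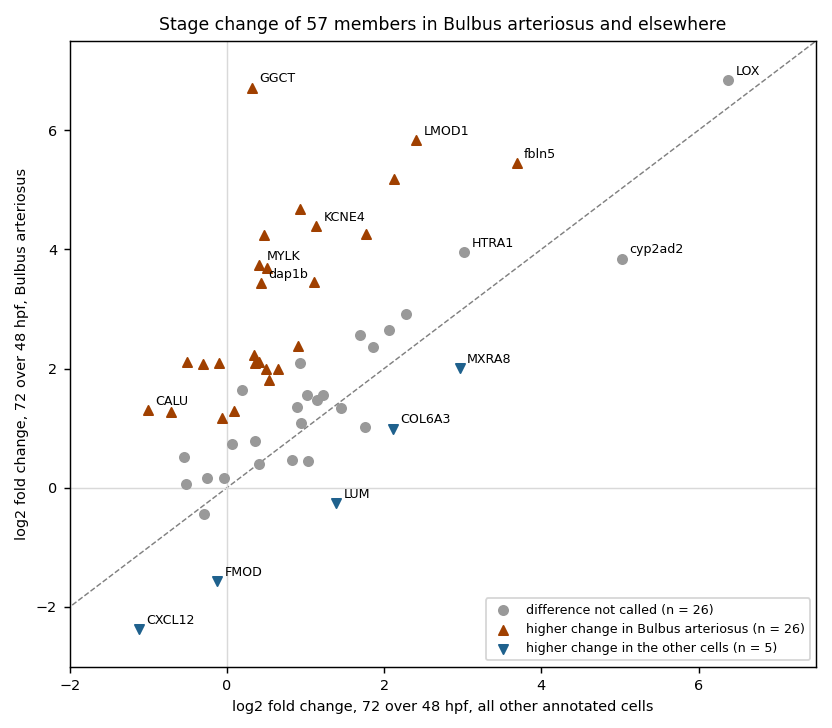
Log2 fold change from 48 to 72 hpf in Bulbus arteriosus (vertical axis) against that in all other annotated cells (horizontal axis) for 57 of the 58 members with a UMI in Bulbus arteriosus at 48 hpf. Each point is a gene, triangles mark a called difference between the 2 sets of cells and the dashed line marks equal change. LOX and HTRA1 lie near that line at high values in both, while GGCT and LMOD1 lie far above it and CXCL12 and LUM below it. GGCT and LMOD1 had 1 and 2 UMIs in Bulbus arteriosus at 48 hpf.

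Per cell, most Bulbus arteriosus cells at 72 hpf carried UMIs of the first 5 members (fbln5, HTRA1, si:cabz01070274.1, LOX and elnb), and few did at 48 hpf. All 5 were under 50 CPM in both 48 hpf libraries and met the floor of the rule only through 72 hpf. The contrast between stages in these shares therefore follows largely from the choice of the genes. At least 1 UMI of them was found in 9.88% and 10.1% of cells at 48 hpf and in 81.0% and 69.5% at 72 hpf. In Erythrocytes, with median depths of 601 and 604 UMIs at 48 hpf and 1029 and 679 UMIs at 72 hpf, the share was 0%, 0%, 14.3% and 19.2%. After thinning every cell to 500 UMIs, which left out none of these cells, Bulbus arteriosus had 3.16% and 3.36% at 48 hpf and 69.7% and 63.1% at 72 hpf. Erythrocytes then had 0% and 0%, which allow up to 2.09% and 0.997% (exact 95% intervals of counting error), and 5.44% and 12.3% at 72 hpf.

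**Figure D4:**
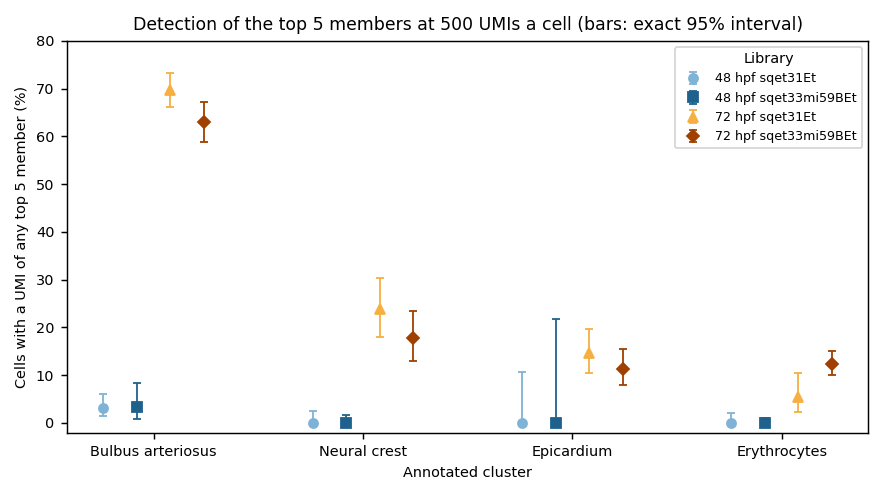
Share of cells with a UMI of any of the 5 highest-ranked members in 4 annotated clusters, after thinning each cell to 500 UMIs. Points are the 4 libraries and bars are exact 95% binomial intervals, which cover counting error only. The Bulbus arteriosus values at 72 hpf (69.7% and 63.1%) stand above all others, and Neural crest at 72 hpf follows with 23.8% and 17.8%. These 5 members met the floor of the rule only through 72 hpf.

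Cells with UMIs of 3 or more of these 5 genes were counted as well, and since the genes were chosen for their restriction to Bulbus arteriosus, where these cells lie is a description only. Of 764 such cells in all libraries, 614 (80.4%) were annotated as Bulbus arteriosus, 45 as Neural crest, 36 as Unclassified and 18 as Myocardium. In Bulbus arteriosus they were 390 and 223 cells at 72 hpf and 1 and 0 cells at 48 hpf. All 5 genes met the floor of the rule only through 72 hpf, which favours this order. For elnb alone, 49.9% and 40.04% of Bulbus arteriosus cells at 72 hpf had a UMI, against 3.40% and 3.63% of Erythrocytes. At 48 hpf 0 of 253 and 0 of 119 cells had one, which allows up to 1.45% and 3.05% of cells with a UMI and sets no limit on expression below detection. The median over all 60 members was 8.10% and 10.5% of cells at 48 hpf and 30.5% and 17.1% at 72 hpf. At 500 UMIs these medians were 2.57%, 2.52%, 8.67% and 8.40%. The share then exceeded that in Erythrocytes for 49 and 44 members at 48 hpf and for all 60 in both 72 hpf libraries, an order that the choice of the genes largely sets.

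Members were compared over the Bulbus arteriosus cells of each library by the Pearson correlation of log values scaled to the cell total, as a description. Over the 1770 pairs the median was 0.03 and 0.02 at 48 hpf and 0.10 and 0.07 at 72 hpf, at detection shares that leave most cells without a UMI of a given member. The pairs with the highest median over the libraries that gave a value were fbln5 with si:cabz01070274.1, fbln5 with LOX, and LOX with elnb. The pairs with si:cabz01070274.1 or elnb gave values at 72 hpf only, and over these 2 libraries fbln5 with LOX had the highest mean (0.59), followed by fbln5 with dap1b (0.48) and LOX with dap1b (0.47). fbln5 and LOX had values of 0.41 and 0.23 at 48 hpf and 0.65 and 0.52 at 72 hpf. For fbln5 with si:cabz01070274.1 the 72 hpf values were 0.51 and 0.43, and for LOX with elnb 0.45 and 0.45. The part of cell depth and of free RNA in these values was not tested.

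Further lists were counted in the same stage fit, in which 4.68% of all tested genes rose and 3.98% fell. None of 16 tested identifiers of TGF-beta and BMP signalling was called in edgeR or DESeq2, and 2 were higher at an unadjusted p under 0.05. Of 22 tested identifiers of collagens and their processing 4 rose: COL5A2 (log2 fold change 1.73, adjusted p = 0.0042), col6a4a (1.76, adjusted p = 0.0075), P4HB (1.40, adjusted p = 0.020) and PLOD2 (1.65, adjusted p = 0.021). COL5A2 and col6a4a are collagen chains. PLOD2 encodes an enzyme that hydroxylates collagen in the endoplasmic reticulum, and P4HB a subunit of another such enzyme. The edgeR call of PLOD2 was lost in cells with at least 1000 UMIs (adjusted p = 0.084). Among 12 vascular mural receptors and ligands 1 rose and 4 fell. RGS5, a pericyte and smooth muscle regulator of G proteins, rose from 21.7 and 50.9 to 236 and 224 CPM, and cxcl12b fell from 107 and 124 to 7.05 and 17.6 CPM. Of 16 outflow tract and second heart field factors, TBX20 (log2 fold change 2.35, adjusted p = 0.0040) and foxc1b (1.56, adjusted p = 0.031) rose. In cells with at least 1000 UMIs edgeR did not call foxc1b (adjusted p = 0.070). Both PRRX1 identifiers and FOXF1 were among the 4 that fell, with log2 fold changes from -3.31 to -2.63.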

How the data were processed

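The deposited values were counts: whole UMIs per gene and barcode in 1 matrix per library, with total UMIs and genes per barcode, made by the authors with Cell Ranger on GRCz11 with EGFP and mRFP added. The authors' annotation also gave the percent of mitochondrial UMIs. The other deposited columns (library, cluster, phase, doublet mark) hold names and were used as such. The authors filtered barcodes by genes, mitochondrial reads and hemoglobin reads, removed doublets and clustered the cells in Seurat. The annotated cells held 216 to 2499 genes and at most 29.99% mitochondrial UMIs. No doublet call was added. Total UMIs over annotated cells were 26051714 and 26447235 at 48 hpf and 26750558 and 11545063 at 72 hpf.

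UMIs were summed per cluster and library and scaled to CPM. Stage (2 libraries against 2), the other cells and the interaction (library as a term) were tested in edgeR 4.0.16 (filterByExpr, TMM, quasi-likelihood, Benjamini-Hochberg over all tested genes, threshold 0.05), checked on simulated counts, with DESeq2 1.42.0 as an alternative (R 4.3.3). The members and the gene lists were chosen with earlier results of these data known. Described in full were the 20 highest-ranked members, every member called between stages or in the interaction, and those in the elastic fibre, contractile and matricellular lists. Other genes came from the lists, with up to 4 examples each. Symbols came from a table of gene names (23608 of 25434 identifiers), and no match was found for some list entries, elna among them. Values of 1 member and of 1 other list gene are not reported here, though the counts include them. Promoter and protein sequences were not used here. Intervals are exact (Clopper-Pearson) and cover counting error only.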

Additional observations from a re-analysis of the deposited data

Results flagged for a closer look

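By the interaction test of edgeR, the stage change differed between Bulbus arteriosus and all other annotated cells for 31 members with an estimable difference. Over all 14833 tested genes, 2.38% were called above 0 and 1.92% below. The same contrast chose the members, so the count is not independent of the choice. With DESeq2 21 members were called, and without the library term 2. Each value below is the log2 fold change in Bulbus arteriosus minus that in the other cells. Over 3 stood GGCT (6.21), acana (3.76), RBFOX3 (3.71), LMOD1 (3.42), MYLK (3.32), emid1 (3.13), LOXL1 (3.08) and KCNE4 (3.06). Of these, GGCT, acana and LMOD1 had 1, 3 and 2 UMIs in Bulbus arteriosus at 48 hpf, so their values are loose. With DESeq2 the differences of GGCT, LMOD1 and LOXL1 were not called (adjusted p = 0.11, 0.20 and 0.11). Between 2 and 3 were dap1b (2.97), OLFML2A (2.64), angptl2a (2.54), cfd (2.34), ENSDARG00000035682 (2.33), CALU (2.30) and lmcd1 (2.18). Between 1 and 2 were SEPTIN7 (1.93), TNS1 (1.87), KIF26B (1.74), fbln5 (1.71), epha7 (1.69), NID2 (1.47), MYL9 (1.47), TPM4 (1.34), MOB2 (1.21), lsp1a (1.20) and FGFRL1 (1.19). Below 0 were LUM (-1.63), FMOD (-1.45), CXCL12 (-1.09), COL6A3 (-1.06) and MXRA8 (-0.96). si:cabz01070274.1 was called as well, but its value has no scale because Bulbus arteriosus had no UMI of it at 48 hpf.

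Barcodes that the authors left out of the annotation also carried UMIs of the 5 highest-ranked members. In the 72 hpf sqet31Et library these barcodes numbered 7454 and held 14108 UMIs of the 5 genes, 56.8% of all their UMIs in that library. In the 72 hpf sqet33mi59BEt library 3117 barcodes held 4881 UMIs, or 52.9%. At 48 hpf the left-out barcodes held 255 and 610 UMIs of the 5 genes, or 55.6% and 83.1%. Of the UMIs of all genes, annotated cells held 26750558 of 57372036 and 11545063 of 24073652 at 72 hpf. At 48 hpf they held 26051714 of 63158786 and 26447235 of 109489623. The left-out barcodes thus held most UMIs of all genes as well, in every library. Whether they are enriched in the 5 genes or include further cells of the bulbus arteriosus was not tested.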

How the results depend on the processing

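The number of members kept by the rule was 39 with a floor of 100 CPM, 13 from the 48 hpf libraries only and 39 to 53 with a library left out. Calls between stages numbered 44 among the members (26 to 45 with a library left out) and 470 among all genes (235 to 518), and for all genes 309 with DESeq2, 727 without the filter, 284 in cells under 10% mitochondrial UMIs and 276 in G1 cells. With the line as a replicate block 46 members and 629 genes were called. The lines are 2 genotypes, same-line deviations correlated at 0.041 over 5430 genes, and the block does not pair animals. Interaction calls numbered 32, 21 with DESeq2, 2 with no replicate block and 17 to 31 with a library left out, and calls in the other cells 15 (6 to 14). None of the 44 stage calls changed sign under any alternative run. With a library left out, 1 stage rested on a single library, and the spread came largely from other genes. The fit with the line block also had little spread of its own. Counts from these fits do not measure the spread of each gene between libraries. Members highest in all 4 libraries numbered 16 with clusters of at least 20 cells. The median detection share per library was 2.57%, 2.52%, 8.67% and 8.40% at 500 UMIs and 2.37%, 3.78%, 11.8% and 4.98% with at least 2 UMIs required. With a library left out, some stage changes that were uncalled with all 4 libraries ran from below to above 0. These were LUM (-0.72 to 0.47, and 0.058 without 72 hpf sqet33mi59BEt), ADAMTS15 (-0.56 to 1.32, and -0.023), TIMP2 (-2.07 to 0.33), SFRP2 (-0.65 to 1.11), mfap2 (-0.30 to 0.52) and thbs2b (-0.083 to 1.49). ADAMTS15 was also at -0.032 at 1000 UMIs, -0.24 under 10% mitochondrial UMIs and -0.12 in G1, and PDGFRL at -0.032 in G1. COL2A1 (ENSDARG00000069093), a cartilage marker called lower at 72 hpf (log2 fold change -3.63), ran from -4.62 to 0.096, the last without 48 hpf sqet33mi59BEt. The mitochondrial, G1 and other-cell alternatives were chosen after seeing the data. The cause of these shifts was not tested. Promoters and proteins were not examined. With 119 to 663 cells per library, genes at a few UMIs at 48 hpf limit the folds.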

Other observations

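The rule run on the 48 hpf libraries alone gave 60 genes of which 47 were not members, and a few of them, chosen after their values were seen, are given as values. cxcl19, a chemokine, was at 54.2 CPM in pooled Bulbus arteriosus cells at 48 hpf and at 2.35 CPM at 72 hpf. il11b, an interleukin of the IL-6 family, was at 110 and 8.46 CPM, and col15a1b, a collagen XV chain, at 69.4 and 7.99 CPM. At 72 hpf another cluster was higher than Bulbus arteriosus for each of these 3 genes. Of the 60 genes chosen at 48 hpf, 20 had Bulbus arteriosus as the highest cluster at 72 hpf, and of the 60 chosen at 72 hpf, 21 had it as the highest at 48 hpf.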
